A study of Mus musculus with 7 samples.

Results

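The 10 genes described here encode the core of the NF-kappaB pathway: Nfkb1, Nfkb2, Rel, Rela, Relb, Map3k14, Traf3, Nfkbia, Tnfaip3 and Ikbkb. They were chosen by name from 22367 protein-coding genes, and what was measured is where the transcription factors PU.1 and MITF were found on chromatin around them. Every peak whose centre lay inside one of the genes or within 50 kb of either end, on the mouse mm9 assembly, was counted as a member peak. The windows held 141 of 76243 PU.1 peaks in myeloid precursors (MPs), 136 of 71941 after 36 h of RANKL and 149 of 77072 in osteoclasts (OCs). They held 17 of 5413, 6 of 3540 and 14 of 4443 MITF peaks at the same times.

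The cells were bone marrow cells of C57BLACK6 mice aged 4 to 6 weeks, grown for 3 days in 50 ng/ml CSF1, which makes MPs. RANKL at 100 ng/ml was then given for 36 h (cells the labels call cOC) or 72 h (OCs), and the MPs received CSF1 without RANKL. Antibody (5 µg) was used to pull down chromatin bound by PU.1, the Ets factor that commits blood progenitors to the myeloid lineage, or by MITF, a basic helix-loop-helix factor of osteoclasts, and the DNA was sequenced (ChIP-seq). Each antibody and time had 1 library, 6 in all, and a seventh library was made with control IgG in MPs. No condition was replicated. Each test below therefore compares 2 libraries against counting noise alone, and differences between cultures or mice cannot be told apart from differences between times.

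NF-kappaB is a family of dimeric transcription factors held inactive in the cytoplasm. In the canonical arm, IKKβ (Ikbkb) phosphorylates the inhibitor IκBα (Nfkbia), which is then degraded, and dimers of p65 (Rela), c-Rel (Rel) and p50 (Nfkb1) enter the nucleus, where they induce Nfkbia and Tnfaip3, whose products switch the signal off again. In the alternative arm, TRAF3 (Traf3) keeps the kinase NIK (Map3k14) low by having it degraded. When TRAF3 is removed, NIK accumulates, p100 (Nfkb2) is processed to p52, and p52 with RelB (Relb) enters the nucleus. RANK, the receptor for RANKL, signals through both arms, and osteoclast formation needs them.

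A peak's height is given as its score, the number of sequenced tags at the peak scaled by the peak caller to a common library size, so that scores of different libraries can be read side by side. The scores fell on whole multiples of 1 tag, which returned the tags themselves. On the caller's usual scale of 10000000 tags, which was assumed, the PU.1 libraries held 5860000 to 6810000 tags, with 27.6 to 32.0% of them in peaks. The MITF libraries held 8760000 to 10270000 tags, with only 0.657 to 1.20% in peaks. The lowest listed peaks of the 6 libraries had 6 to 10 tags. The IgG list held no peak in any of the 10 windows. It had only 349 peaks in all, from MPs alone and with a lowest score of 22.4, so this absence says little. The MITF peaks at 36 h were of variable width (150 to 1387 bp, against 150 bp in MPs and OCs), and the PU.1 peaks were mostly 190 bp wide at 36 h against 150 bp at the other times, so the 36 h lists may have been called with other settings. PU.1 was checked near cell type markers, since no RNA was measured. The 4 myeloid genes Csf1r, Itgam, Emr1 and Cd68 had their highest peaks in MPs at scores of 201.3 to 233.7, and the 3 erythroid genes Gata1, Klf1 and Epor at 68.2 to 93.8. The 4 osteoclast genes Acp5, Ctsk, Oscar and Itgb3 had theirs at 133.1 to 283.2. Of the 3 T cell genes, Cd3e had 54.6, Lck 88.7 and Cd4 163.8.

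Some of the sites that carry the results are printed from the mm9 genome on the plus strand. They are the highest PU.1 peak in MPs around Relb, Ikbkb, Nfkb1 and Map3k14, and the one PU.1 site near a member whose tags passed the test for a change. Capitals mark exact matches to the PU.1 core GAGGAAGT or its shorter form AGGAAGT, on either strand, and in the Rel sequence to the E-box CATGTG (read CACATG on the plus strand) and to the kappaB consensus. The Relb sequence is chr7:20252922-20253072, the Ikbkb sequence chr8:23808567-23808717, the Nfkb1 sequence chr3:135271187-135271337, the Map3k14 sequence chr11:103110921-103111071 and the Rel sequence chr11:23671419-23671569.
Relb: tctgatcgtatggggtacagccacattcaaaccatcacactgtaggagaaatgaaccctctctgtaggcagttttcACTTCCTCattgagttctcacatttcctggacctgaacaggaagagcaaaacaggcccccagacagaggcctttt
Ikbkb: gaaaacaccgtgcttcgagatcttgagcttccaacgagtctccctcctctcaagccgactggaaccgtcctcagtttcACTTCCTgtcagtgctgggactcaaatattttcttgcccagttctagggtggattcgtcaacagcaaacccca
Nfkb1: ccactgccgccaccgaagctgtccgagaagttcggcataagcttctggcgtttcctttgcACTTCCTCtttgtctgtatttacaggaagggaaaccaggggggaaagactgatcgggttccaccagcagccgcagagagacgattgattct
Map3k14: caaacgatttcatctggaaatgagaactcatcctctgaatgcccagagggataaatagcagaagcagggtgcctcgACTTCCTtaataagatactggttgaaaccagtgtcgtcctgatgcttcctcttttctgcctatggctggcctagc
Rel: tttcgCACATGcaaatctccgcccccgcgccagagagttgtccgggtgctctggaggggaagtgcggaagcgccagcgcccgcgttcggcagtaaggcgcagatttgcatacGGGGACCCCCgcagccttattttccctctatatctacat

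PU.1 peaks were found around every member at every time, where 83.8, 83.3 and 83.8% of all coding genes had one. The median density was 9.29 peaks per 100 kb of window in MPs, 9.32 at 36 h and 11.2 in OCs, where all protein-coding genes had medians of 4.72, 4.64 and 4.85. Member peaks were also higher than the lists they came from, with median scores of 30.7, 34.0 and 33.8 against 23.9, 23.7 and 23.5. In MPs, 48 member peaks lay inside the gene, 44 upstream and 49 downstream, and by annotation 63 fell in introns, 64 between genes and 14 in exons. The nearest transcription start site (TSS) belonged to the member for 95 of the 141 peaks (67.4%). The other peaks lay nearer to a neighbour, and the windows of Relb, Rela and Nfkb2 touched 7, 5 and 5 other coding genes, while those of Nfkbia and Tnfaip3 touched none.

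**Figure D1:**
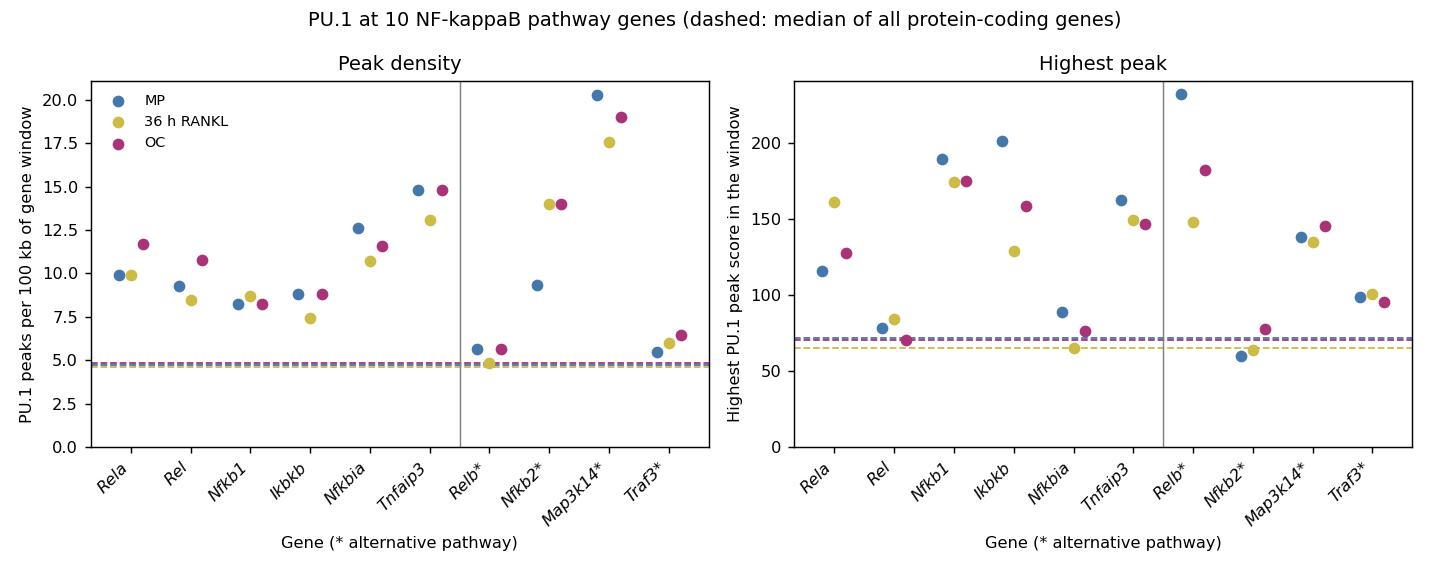
PU.1 peaks per 100 kb of window (left) and the score of the highest PU.1 peak (right) for each of the 10 genes in MPs, at 36 h and in OCs, 1 library per time, with the median of all protein-coding genes dashed. Map3k14, whose PU.1 cluster was known when the genes were chosen, has the highest density at each time (20.3, 17.6 and 19.0). Relb has the highest single peak in MPs and OCs (232.0 and 182.1).

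Among the DNA-binding subunits of the canonical arm, Rela (chr19:5637483-5648130, plus strand) had 11 PU.1 peaks in MPs, 11 at 36 h and 13 in OCs, none of them inside the gene. Its own promoter site, at -800 bp (negative distances are upstream of the 5′ end of the gene), scored 42.6, 39.9 and 47.0. The highest site of the window lay at 23698 bp, in an intron of Sipa1, with scores of 116.0, 161.1 and 127.8, and MITF was listed there at all 3 times. The largest change at a Rela site, at -35620 bp, was a log2 change of 1.57 from MPs to 36 h (adjusted p = 0.263, exact binomial test), which did not pass.

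Rel (chr11:23641514-23670970, minus strand), which encodes c-Rel, had 12, 11 and 14 PU.1 peaks. Its highest peaks scored 78.5, 84.3 and 70.5, in the range of Nfkbia and below the other canonical genes. A row of 4 sites marked its 5′ end, at 2882, 1174, 623 and -509 bp. The first scored 73.3, 48.8 and 42.6, the next 66.5, 37.0 and 41.1, and the site at 623 bp 64.8, 45.8 and 66.1. The upstream site ran the other way, at 39.2 in MPs, 84.3 at 36 h and 60.2 in OCs. In tags, the upstream site rose from 23 in MPs to 57 at 36 h, a log2 change of 1.23 with a 95% interval of 0.51 to 1.99 (exact binomial test, unadjusted p = 4.85e-04, adjusted p = 0.0446 over 56340 matched peaks). It was the only matched PU.1 peak near any member to pass in any of the 3 comparisons. The peak at 36 h was 190 bp wide and that in MPs 150 bp, and with the ratio of library sizes in place of the median ratio of all matched peaks as the null, the log2 change was 1.10 and the adjusted p 0.0670. As printed above, its 151 bases hold neither form of the PU.1 core, and hold a kappaB consensus match. One site 74925 bp from the 5′ end, in an intron of the neighbour Pus10, scored 63.1 in MPs and 61.7 in OCs with no peak listed at 36 h, the highest member site not found at all 3 times.

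Nfkb1 (chr3:135247619-135354511, minus strand), which encodes p105 and p50, had 17, 18 and 17 PU.1 peaks, mostly inside the gene. Its highest peak, at 83262 bp in a coding exon, scored 189.3, 174.4 and 174.7. A site at 846 bp in an intron scored 97.2, 84.3 and 80.8, and one at 50 bp in a UTR exon 18.8, 16.3 and 29.4. Of the 20 sites around Nfkb1, 15 were listed at all 3 times. The intronic site at 15886 bp went from 37.0 at 36 h to 10.3 in OCs, a log2 change of -1.95 (adjusted p = 0.280, exact binomial test), which did not pass.

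Ikbkb (chr8:23769684-23817061, minus strand), the kinase of the canonical arm, had 13, 11 and 13 PU.1 peaks, with 11 of 14 sites listed at all 3 times. Several of the highest sites near any member lay here. An intronic site at 8411 bp scored 201.3, 128.6 and 158.6, and a site 64682 bp from the 5′ end, in an intron of the neighbour Polb, 175.7, 113.8 and 129.2. Just past the 3′ end, a site at 48513 bp scored 112.6, 87.2 and 104.3. The site at the 5′ end itself (30 bp, in a UTR exon) was lower in MPs than later, at 54.6, 96.1 and 88.1. The largest change was at 13287 bp in an exon, from 81.9 in MPs to 35.2 in OCs, a log2 change of -1.19 (adjusted p = 0.155, exact binomial test), which did not pass.

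The inhibitor genes differed in how their peaks were laid out. Nfkbia (chr12:56590398-56593634, minus strand), a short gene, had 13, 11 and 12 PU.1 peaks, most of them in the intergenic stretch downstream, and the highest of these in MPs and OCs, at 3804 bp, scored 88.7, 50.3 and 76.4. Its promoter site, at -360 bp, was low at 15.4 in MPs and 25.1 at 36 h, and no peak was listed there in OCs. Tnfaip3 (chr10:18720716-18735463, minus strand), which encodes the ubiquitin-editing enzyme A20, had 17, 15 and 17 PU.1 peaks and the highest 5′ site of all members, at 286 bp in a UTR exon, with scores of 162.1, 149.3 and 146.8. A far site at -47887 bp scored 131.3, 66.5 and 86.6. The largest log2 change at a Nfkbia site was -1.44 from 36 h to OCs, where the score at 11569 bp went from 44.3 to 17.6 (adjusted p = 0.399, exact binomial test). At Tnfaip3 it was 1.72 from MPs to 36 h, where the score at 50635 bp went from 10.2 to 31.0 (adjusted p = 0.225, exact binomial test). Neither passed.

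Turning to the alternative arm, Relb (chr7:20191566-20214787, minus strand) had the fewest PU.1 peaks, 7, 6 and 7, and the highest one. That site, at -38208 bp, lies between genes, nearer to the TSS of Clptm1 than to that of Relb, and scored 232.0 in MPs, 147.8 at 36 h and 182.1 in OCs. In MPs, 93.9% of coding genes had a lower highest peak in their window. The site at 651 bp in an intron scored 49.5, 51.7 and 39.6. The largest change, 24907 bp from the 5′ end and just past the 3′ end, was a log2 change of 0.87 from MPs to 36 h (adjusted p = 0.235, exact binomial test), which did not pass.

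Nfkb2 (chr19:46379227-46386580, plus strand), which encodes p100, went from 10 PU.1 peaks in MPs to 15 at 36 h and 15 in OCs, the largest difference in number among the 10 genes. Of its 19 sites, 8 (42.1%) were listed at all 3 times, against 50.5% of all sites. At 36 h and in OCs but not in MPs, 4 were listed (21.1%, exact binomial interval 6.05 to 45.6), against 6.17% of all sites. Those 4 scored 19.2, 22.2, 23.7 and 16.3 at 36 h, low peaks against a lowest listed score of 10.2 in MPs. The first, at 3904 bp, lay in a coding exon of Nfkb2. The others, at 39301, 53334 and 56649 bp, lay in introns of the neighbour Tmem180. The TSS of Nfkb2 was the nearest for only 2 of the 10 peaks in MPs, 3 of the 15 at 36 h and 4 of the 15 in OCs. The promoter site at -401 bp was present throughout at 42.6, 48.8 and 49.9, and one at 872 bp was listed in OCs alone, at 11.7. The largest change, at 53340 bp in an intron of Tmem180, was a log2 change of -1.31 from 36 h to OCs (16 to 7 tags, adjusted p = 0.896, exact binomial test), which did not pass. The highest peaks of Nfkb2 were the lowest among the members in MPs and at 36 h (59.7 and 63.6), and 77.8 in OCs.

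Map3k14 (chr11:103081076-103128786, minus strand), which encodes NIK, stood at the far end of the density scale. It had 30 PU.1 peaks in MPs, 26 at 36 h and 28 in OCs, or 20.3, 17.6 and 19.0 per 100 kb, and 99.7, 99.6 and 99.5% of coding genes had a lower density. Its peaks were many rather than extreme: the highest scored 138.2, 134.5 and 145.4. The site at 17792 bp in an intron scored 138.2, 134.5 and 133.6, and one at 92227 bp in an intron of Fmnl1 scored 117.7, 130.1 and 145.4. Of 32 sites, 24 were listed at all 3 times. The largest change, at -30113 bp, was a log2 change of 1.25 from 36 h to OCs (7 to 18 tags, adjusted p = 0.918, exact binomial test), which did not pass. Within 1 kb of the 5′ end, 1 peak of 13.2 was listed at -290 bp in OCs and none in MPs or at 36 h. Sites a little farther out, at 2078 bp (46.1, 35.5 and 33.8) and -2079 bp (63.1, 56.2 and 60.2), were listed at all 3 times.

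When neighbouring peaks separated by at most 12.5 kb were joined, many peaks inside and upstream of Map3k14 fell into a cluster at chr11:103107885-103280738 in OCs, with 45 peaks over 172.9 kb and a summed score of 1795.8. It ranked 5th of 30890 clusters in OCs. In MPs the cluster had 41 peaks, a summed score of 1752.1 and rank 8 of 30661, and at 36 h 39 peaks, 1542.1 and rank 5 of 30316. The Map3k14 window ends at 103178786, so most of the cluster's length lies beyond it, and the cluster also touches Arhgap27 and Plekhm1. It was already known when the genes were chosen, so neither its rank nor the high density of the Map3k14 window is a separate result. The next clusters of the members ranked far lower, with Tnfaip3 at 412 in MPs and Nfkb1 at 808.

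Traf3 (chr12:112404581-112505364, plus strand) was sparse, with 11, 12 and 13 PU.1 peaks or 5.48, 5.98 and 6.47 per 100 kb. Its highest peak in MPs and OCs lay beyond the 3′ end, in a coding exon of the neighbour Cdc42bpb at 135769 bp (98.9, 91.6 and 95.4), with another at 143089 bp (75.1, 90.2 and 89.6). At 36 h the highest was inside the gene, at 6569 bp, where the scores were 66.5, 100.5 and 85.2. The site at the 5′ end (25 bp) scored 25.6, 35.5 and 23.5. Of its 19 sites 8 were listed at all 3 times. The 4 sites listed at 36 h alone were all upstream and scored 10.3 to 11.8, close to the lowest listed score of 10.3. They made up 21.1% of its sites (exact binomial interval 6.05 to 45.6), against 9.03% of all sites. The largest change, at -13171 bp, was a log2 change of 0.97 from MPs to 36 h (adjusted p = 0.495, exact binomial test), which did not pass.

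**Figure D2:**
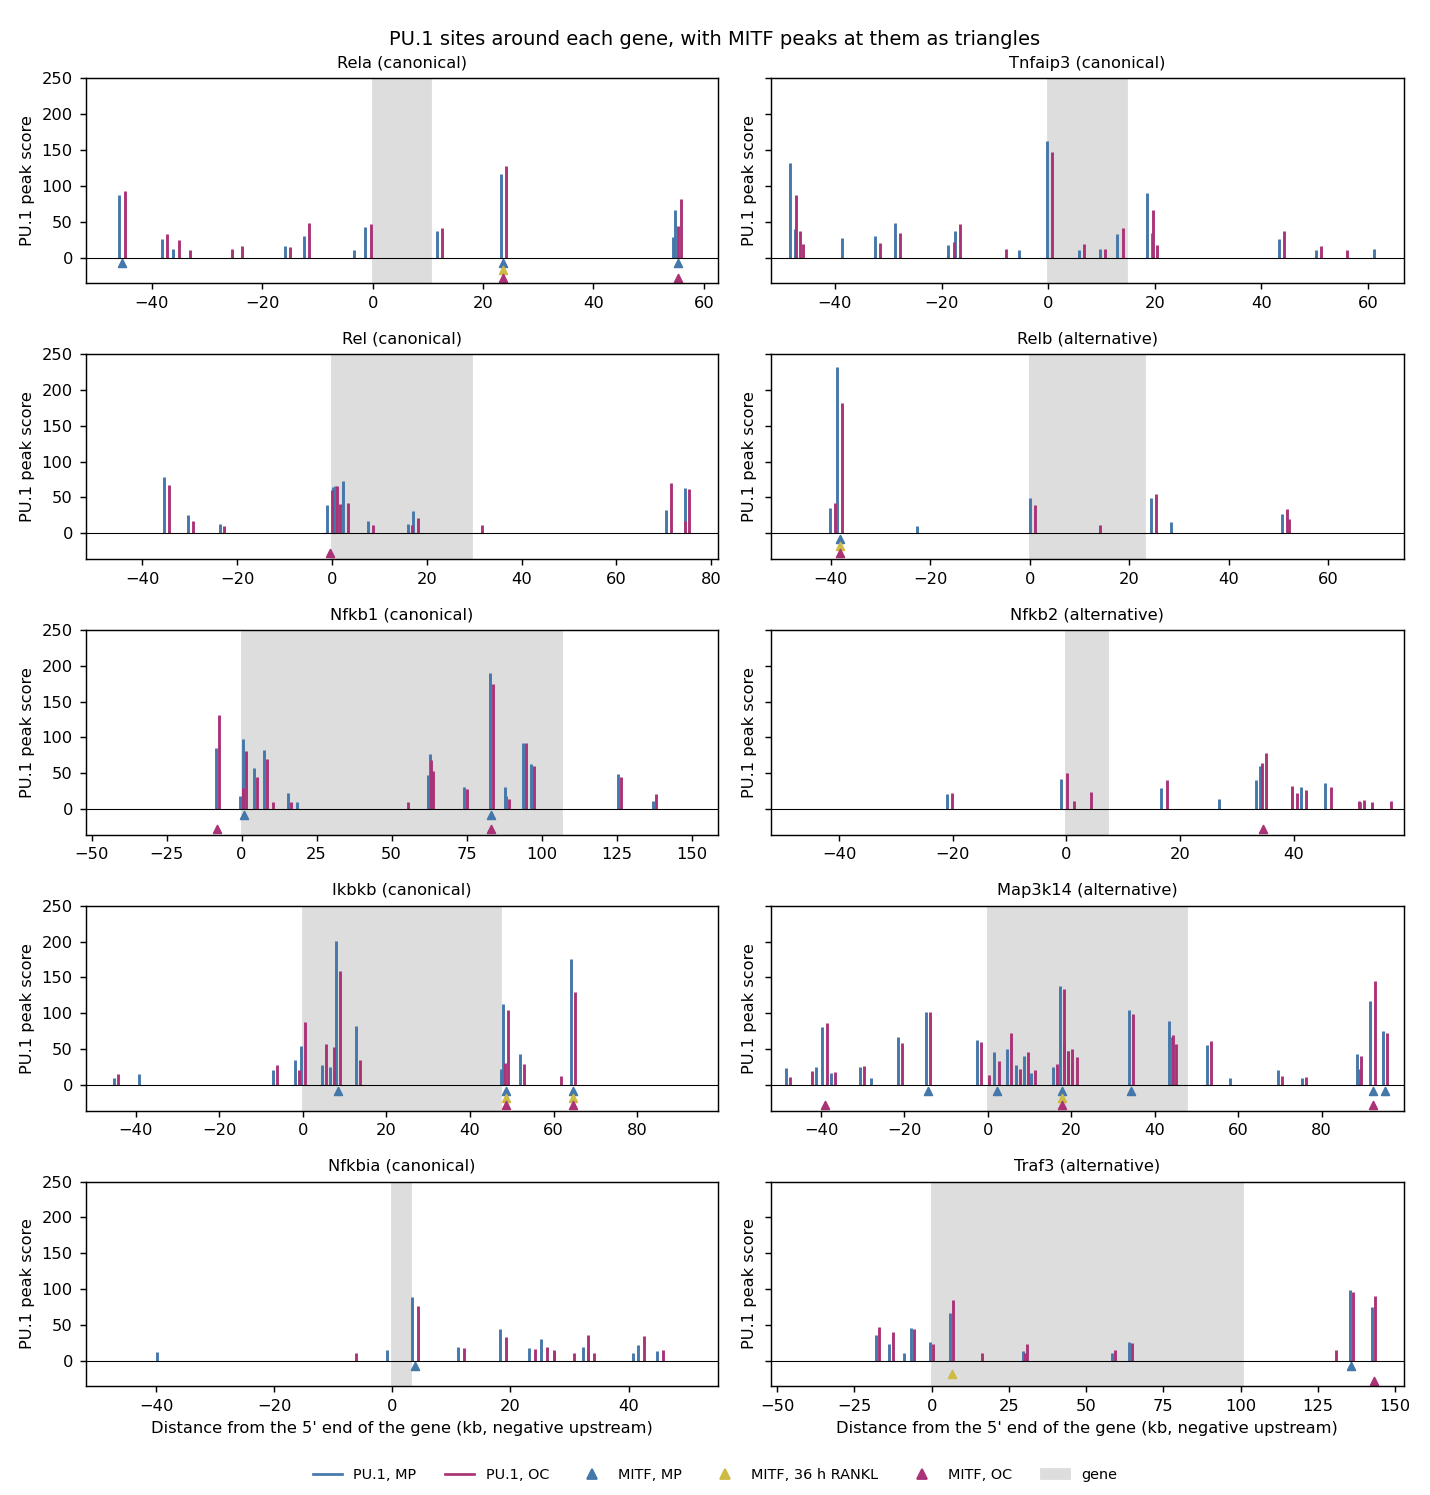
PU.1 scores (vertical axis) of the sites around each gene in MPs and OCs against distance from the 5′ end of the gene (kb), with the bars of the 2 times set slightly to either side of the site, the gene shaded, and triangles coloured by time at PU.1 sites where a MITF peak was listed. Map3k14 shows 32 sites spread over the gene and both flanks, and Relb 9 sites with a single high one upstream.

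PU.1 was listed at the 5′ ends of most of these genes. In MPs 9 of the 10 had a peak within 1 kb of the 5′ end (all but Map3k14), at 36 h the same count held with the same exception, and in OCs 9 had one (all but Nfkbia). Of all 22367 coding genes, 29.6, 31.6 and 32.2% had one. In all, 13 member sites lay that close, and 8 genes had one that was listed at all 3 times.

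The 2 arms of the pathway were compared by their medians and ranges, without a test, since 6 genes stood against 4. The median PU.1 density of the canonical genes was 9.61 in MPs, 9.32 at 36 h and 11.2 in OCs, with single genes between 7.46 and 14.8. That of the alternative genes was 7.50, 9.97 and 10.2, with single genes from 4.87 (Relb at 36 h) to 20.3 (Map3k14 in MPs). The higher median of the alternative genes at 36 h turned with windows of 20 kb (6.71 against 11.2 for the canonical genes) and of 100 kb (7.91 against 9.03), and with only the peaks nearest to the member's TSS (3.89 against 6.96). The ranges overlapped at every time, and the alternative genes held both the densest window and the sparsest ones. The densest, that of Map3k14, holds part of the cluster that was known when the genes were chosen. The median of the highest scores was 139, 139 and 137 for the canonical and 119, 118 and 120 for the alternative genes, both above the 71.6, 65.0 and 70.5 of all coding genes. In order of density in MPs, the genes ran from Map3k14 (20.3) over Tnfaip3 (14.8), Nfkbia (12.6), Rela (9.94), Nfkb2 (9.31), Rel (9.27), Ikbkb (8.82) and Nfkb1 (8.22) to Relb (5.68) and Traf3 (5.48). With 1 library a time this order has no replicate error, and from Rela to Nfkb1 neighbours in it differed by less than 1 peak per 100 kb.

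Most PU.1 sites around the members were listed before and after RANKL. Merging the 3 lists gave 183 sites around the members, 104 canonical and 79 alternative, and 108 of them (59.0%, exact binomial interval 51.5 to 66.2) were listed at all 3 times, against 50.5% of all 102370 sites. For the canonical genes it was 63 of 104 (60.6%) and for the alternative genes 45 of 79 (57.0%). Sites listed at all 3 times were the high ones, with a median top score of 50.8 against 13.3 for the other 75, and the lowest listed PU.1 scores were 10.2 to 10.3. These intervals cover counting error only.

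Few matched PU.1 peaks passed a test for a change in height. From MPs to 36 h, 1 of 114 member pairs had an adjusted p below 0.05 and changed 2-fold or more (the Rel site above), where 0.932% of all pairs did. From 36 h to OCs 0 of 116 passed (0.0655% of all pairs), and from MPs to OCs 0 of 120 (0.130%), by the exact binomial test. At an unadjusted p under 0.05, by the same test, there were 17 member pairs (14.9%), 9 (7.76%) and 8 (6.67%), where 10.0, 5.80 and 7.09% of all pairs were found. The median log2 changes of the member pairs were 0.08, -0.08 and -0.01. In simulated lists of the same depth and with counting noise only, changes were placed only at higher peaks. These had more tags than the median pair, which held 38 over its 2 libraries from MPs to 36 h. There the test found 66 of 200 pairs changed 2-fold from MPs to 36 h and 179 of 200 changed 3-fold. A call also needed an observed change of 2-fold or more, and counting scatter takes some pairs set at 2-fold below that. Changes near 2-fold could thus often be missed, and recovery at lower peaks was not simulated.

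Summed over the matched peaks of a whole window, no member had an adjusted p below 0.05 together with a 1.5-fold or greater change in any comparison. Of all coding genes tested, 0.829% were higher and 1.14% lower at 36 h than in MPs, 0.0937% higher and 0.143% lower in OCs than at 36 h, and 0.220% higher and 0.297% lower in OCs than in MPs. The member nearest to a call was Traf3, which went from 233 tags in MPs to 338 at 36 h, a log2 change of 0.45 (0.21 to 0.70, adjusted p = 0.00874, exact binomial test), short of 1.5-fold. With windows of 20 kb it was 0.63 (adjusted p = 0.00576, exact binomial test) and passed. Rela was next, from 245 to 335 tags, at 0.37 (adjusted p = 0.0424, exact binomial test), then Nfkbia at 0.40 (adjusted p = 0.0796) and Nfkb2 at 0.31 (adjusted p = 0.207). The other 6 members lay between -0.17 and 0.02. For Rela the adjusted p by the same exact binomial test was 0.190 with library sizes as the null and 0.173 with windows of 20 kb. It was 0.0733 with only peaks at no less than 2 times the lowest score, and 0.0406 with peak centres matched within 100 bp.

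From 36 h to OCs the most negative values were those of Nfkbia at -0.42 (224 to 181 tags, adjusted p = 0.146, exact binomial test) and Traf3 at -0.27 (adjusted p = 0.363), and the others lay between -0.14 and 0.05. The 36 h library is part of both comparisons. From MPs to OCs, Rela was at 0.29 (adjusted p = 0.186, exact binomial test), Nfkb2 at 0.27 and Traf3 at 0.21, and the other 7 were between -0.15 and 0. By arm, the median window change from MPs to 36 h was -0.05 for the canonical and 0.17 for the alternative genes, from 36 h to OCs -0.03 and -0.10, and from MPs to OCs -0.06 and 0.11, beside 0.01, -0.01 and 0.00 for all genes. The ranges of the arms overlapped in each comparison.

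**Figure D3:**
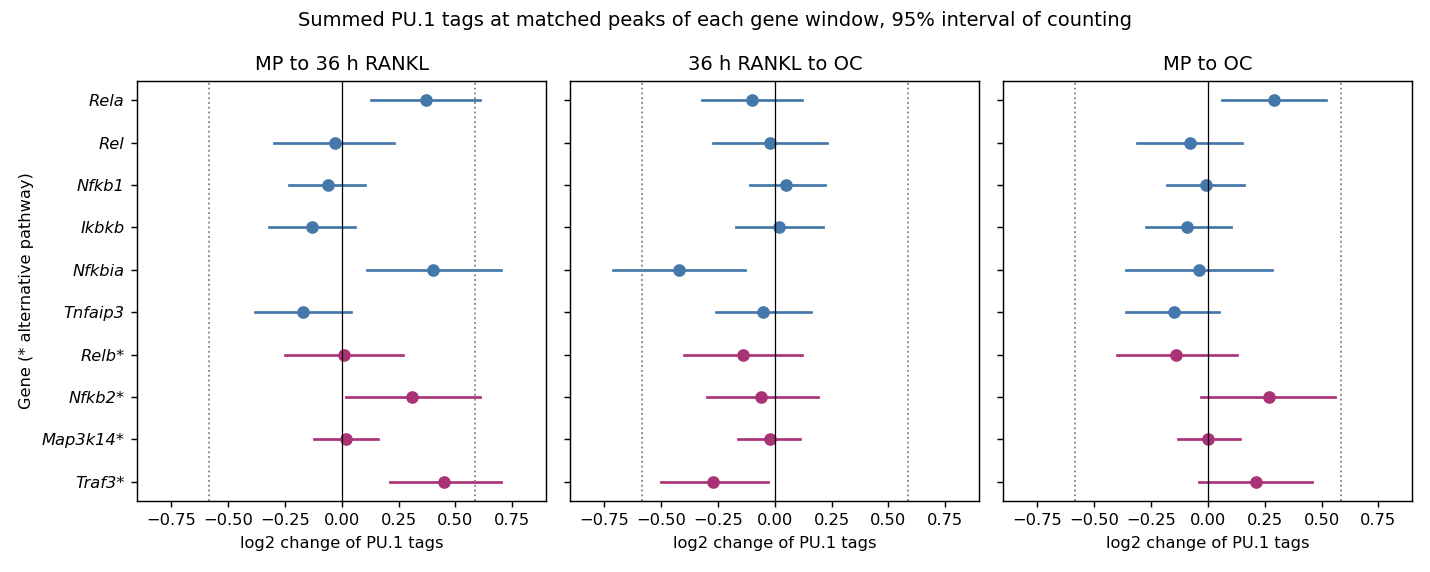
Log2 change of PU.1 tags summed over the matched peaks of each gene window for the 3 comparisons, with 95% intervals from the counts, 1 library per time, and dotted lines at 1.5-fold. Traf3, at 0.45 from MPs to 36 h, comes nearest to the line, and no point passes it.

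MITF was listed at 23 of the 183 PU.1 sites at one time or another, 11 canonical and 12 alternative. Each of the 23 was a site where PU.1 was listed at all 3 times, and they were high ones, with top PU.1 scores of 46.1 to 232.0 and a median of 100.5, against 42.9 for the other 85 sites of that kind. The same values over all sites with MITF are not given here, so neither trait is shown to be particular to these genes. MITF peaks around the members had a PU.1 peak under them in 17 of 17 cases in MPs, 6 of 6 at 36 h and 13 of 14 in OCs, as did 97.9, 93.8 and 93.3% of all MITF peaks. The exception was a MITF peak of 9.1 at -27275 bp from Tnfaip3 in OCs, the only MITF peak listed around that gene. Seen from PU.1, 12.1% of the member peaks in MPs had MITF (17 of 141, interval 7.18 to 18.6), beside 6.95% of all PU.1 peaks, and in OCs 8.72% (4.73 to 14.5) beside 5.38%. At 36 h it was 4.41% (1.64 to 9.36) beside 4.62%. By arm the shares were 10.8, 3.90 and 8.14% for the canonical and 13.8, 5.08 and 9.52% for the alternative genes, with overlapping intervals at every time.

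At least 1 MITF peak was listed around 7 members in MPs, 5 at 36 h and 9 in OCs, where 32.1, 24.0 and 28.8% of all coding genes had one. Map3k14 had the most in MPs and OCs, 6 and 3, with 1 at 36 h. Ikbkb had 3, 2 and 2, and Rela 3, 1 and 2. Nfkb1 had 2 in MPs, none at 36 h and 2 in OCs, the highest at its exonic site at 83262 bp (16.6 in MPs and 16.0 in OCs). No MITF peak was listed around Rel, Nfkb2 or Tnfaip3 in MPs, where each had 1 in OCs. Nfkbia had 1 in MPs alone, at 3804 bp (10.4). Traf3 had 1 at each time, at 3 different sites, the highest at 143089 bp in OCs (14.8). The OC peaks of Rel (at -509 bp), Nfkb2 (at 34643 bp) and Tnfaip3 scored 9.1 to 10.3, next to the lowest listed OC score of 9.1.

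MITF was listed at all 3 times at 5 sites. The highest PU.1 site of Relb carried the highest MITF peak near any member at 36 h and in OCs, at 15.6 in MPs, 57.4 at 36 h and 26.3 in OCs. The Rela site in Sipa1 scored 12.5, 36.0 and 9.1, the Ikbkb site in Polb 18.7, 31.1 and 17.1, the Ikbkb site past the 3′ end 15.6, 11.7 and 12.6, and the Map3k14 site at 17792 bp 20.8, 27.3 and 20.6. At 4 of these 5 sites MITF was highest at 36 h, and PU.1 was highest at 36 h at the Rela site alone. MITF tags at matched peaks were higher at 36 h as a whole, as given below. Relative to the median MITF pair from MPs to 36 h, the Relb and Rela sites were at log2 changes of 1.18 and 0.83. The Ikbkb site in Polb was at 0.03, the Map3k14 site at -0.31 and the other Ikbkb site at -1.12. MITF was listed at a single time at 15 of the 23 sites, 9 in MPs, 1 at 36 h (Traf3 at 6569 bp, 10.7) and 5 in OCs.

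Of 5 MITF pairs near members from MPs to 36 h, 1 passed the test, the Relb site, and 0 of 5 passed from 36 h to OCs. The Relb site went from 15 tags in MPs to 59 at 36 h, a log2 change of 1.18 relative to the median pair (0.34 to 2.10, adjusted p = 0.0296, exact binomial test), with a peak of 150 bp in MPs and of 222 bp at 36 h. When only peaks scoring 2 times the list minimum or more were kept, 2 member pairs were left, without the Relb site, and 0 passed. Of all MITF pairs, 13.9% passed from MPs to 36 h and 9.20% from 36 h to OCs. From MPs to OCs 0% passed, and there no member pair had an unadjusted p under 0.05 either by this exact test. Tags at matched MITF peaks were higher at 36 h as a whole, by a median ratio of 1.737 over MPs, while the libraries differed in size by 1.067. With library sizes as the null, 32.7% and 37.3% of all pairs passed, and 0% from MPs to OCs. On that scale the Relb site was at 1.88 from MPs to 36 h (adjusted p = 9.50e-06, exact binomial test) and at -1.13 from 36 h to OCs (adjusted p = 0.00477). The Rela site in Sipa1 was at 1.53 (adjusted p = 0.00444, exact binomial test) and at -1.98 (adjusted p = 6.69e-04), where relative to the median pair it was at 0.83 and -1.13 and did not pass. The part that the calling settings at 36 h had in these differences was not tested.

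**Figure D4:**
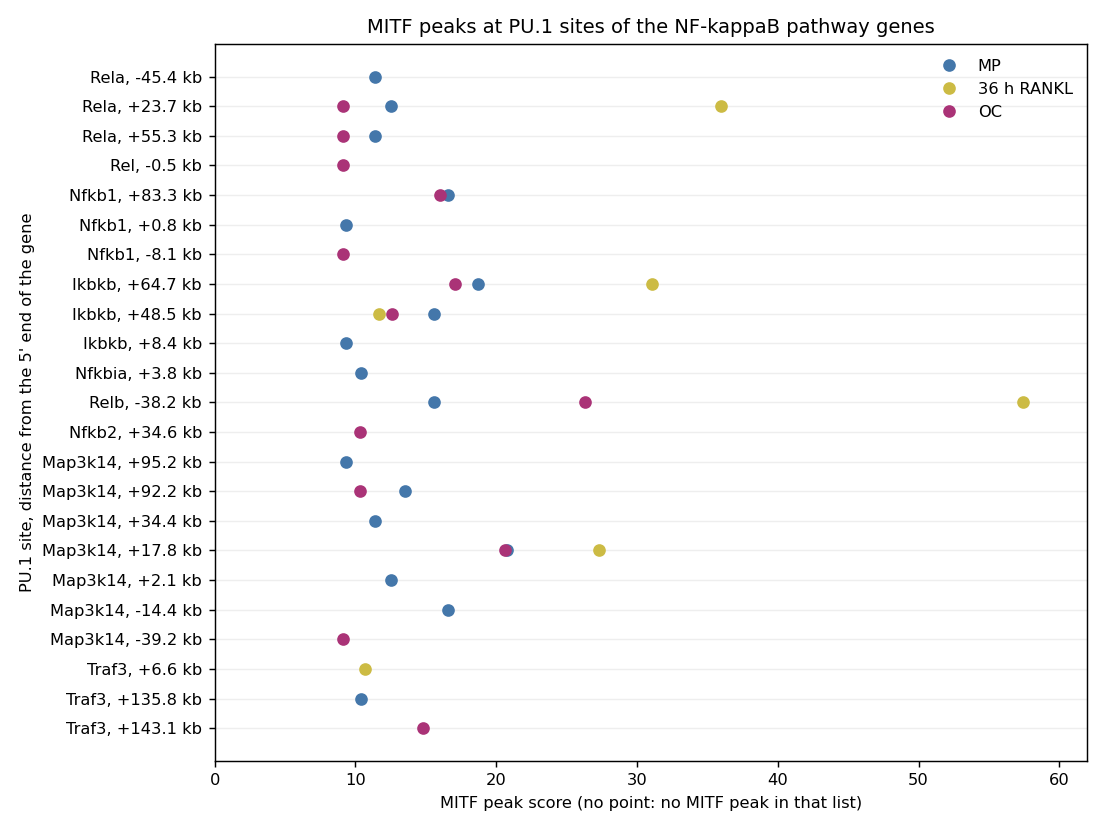
MITF scores in MPs, at 36 h and in OCs at the 23 PU.1 sites around the members where a MITF peak was listed, 1 library per time. The Relb site reaches 57.4 at 36 h, and most other values lie close to the lowest listed scores of 9.1 to 9.7.

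Short motifs were looked for, on either strand, in the 100 bp to each side of every PU.1 peak centre. The PU.1 core GAGGAAGT was found in 19.9% of the member peaks in MPs, 22.1% at 36 h and 19.5% in OCs, beside 22.5, 23.1 and 22.8% of all PU.1 peaks. The shares of the arms lay apart, with the core in 12.0, 11.7 and 10.5% of the canonical peaks and 31.0, 35.6 and 31.7% of the alternative ones. The exact binomial intervals overlapped in MPs (5.93 to 21.0 and 19.5 to 44.5). At 36 h (5.49 to 21.0 and 23.6 to 49.1) and in OCs (4.90 to 18.9 and 20.6 to 44.7) they did not overlap. Peaks of the 3 times are largely the same sites, so these are not 3 separate observations, and no test was made between the arms. Rela and Tnfaip3 had the core in none of their peaks at any time (0 of 17 for Tnfaip3 in OCs, an interval up to 19.5%). Among the alternative genes, Nfkb2 had it in 40.0% of its peaks at each time and Map3k14 in 23.3, 23.1 and 25.0%, near the share of all peaks, and among the canonical genes Nfkb1 had it in 29.4, 22.2 and 23.5%.

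The arms lay closer together with the shorter core AGGAAGT, which lies within the longer one and was added after the printed sequences had been seen. It was in 42.2, 35.1 and 38.4% of the canonical and 43.1, 47.5 and 42.9% of the alternative peaks, beside 42.5, 43.0 and 42.8% of all. The intervals overlapped at every time, at 36 h from 24.5 to 46.8 for the canonical and from 34.3 to 60.9 for the alternative peaks. The highest sites of Ikbkb and Map3k14 printed above hold the shorter core without the longer, while those of Relb and Nfkb1 hold both. A kappaB consensus match was found in 7.09, 8.82 and 8.05% of the member peaks (10 of 141, 12 of 136 and 12 of 149), beside 4.11, 5.06 and 4.71% of all, and in 4 alternative and 8 canonical peaks in OCs. The exact binomial intervals of the member shares, 3.45 to 12.7, 4.64 to 14.9 and 4.23 to 13.6, each held the share of all peaks. The E-boxes CACGTG and CATGTG, of the kind that MITF binds, were in 2.13, 3.68 and 2.68% and in 11.3, 11.8 and 14.1% of the member peaks, beside 3.23, 3.43 and 3.29% and 14.7, 14.4 and 14.4% of all. At the 23 sites with MITF, CACGTG was found at 0 (an interval up to 14.8%), CATGTG at 1 and AGGAAGT at 13 (56.5%, 34.5 to 76.8). Of all MITF peaks in MPs, at 36 h and in OCs, CACGTG was in 2.94, 2.91 and 2.44%, CATGTG in 14.5, 12.9 and 13.4%, and AGGAAGT in 54.1, 54.9 and 52.3%. The 160 member sites without MITF had AGGAAGT in 36.9% (29.4 to 44.9). A match describes the letters in the window and does not show that a factor bound there.

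**Figure D5:**
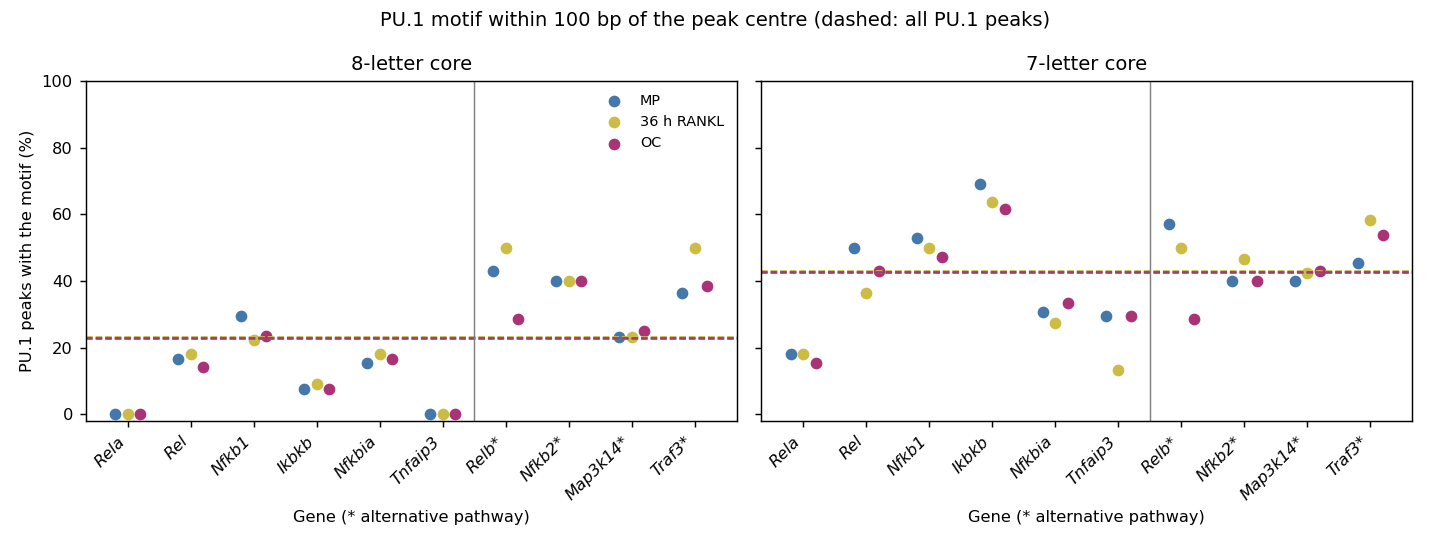
Share of PU.1 peaks of each gene with the PU.1 core GAGGAAGT and with the shorter AGGAAGT within 100 bp of the peak centre. The longer core is at 0% for Rela and Tnfaip3 and 40.0% for Nfkb2 at each time.

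PU.1 peaks were also found around every other gene of the pathway that was looked at. The list of 21 held the receptors Tnfrsf11a (RANK), Tnfrsf1a, Tnfrsf1b, Cd40 and Ltbr, the adaptors and ligases Traf6, Traf2, Birc2, Birc3, Tank and Tab2, the kinase subunits Chuk, Ikbkg and Map3k7, and the inhibitors and regulators Tnip1, Nfkbib, Nfkbie, Nfkbiz, Nfkbid, Bcl3 and Cyld. All 21 had PU.1 peaks at each time, where 83.8, 83.3 and 83.8% of all coding genes did. A MITF peak was listed around 12, 9 and 12 of them, where 32.1, 24.0 and 28.8% of all coding genes had one. Windows of neighbours share peaks: Birc2 and Birc3 had the same highest scores, as did Tnfrsf1a and Ltbr, so the genes are not all separate counts. Their median density was 7.97, 8.63 and 9.40 per 100 kb, below that of the members and above that of all coding genes. Tnfrsf11a, the receptor for RANKL, had 18, 19 and 21 PU.1 peaks, the highest at 160.3, 146.3 and 160.1. The highest peak of the list was near Cyld, a deubiquitinase that restrains the pathway, at 301.9, 323.7 and 305.4. Of the 21 windows, 0 rose and 1 fell from MPs to 36 h, 1 rose and 0 fell from 36 h to OCs, and 0 passed from MPs to OCs by the exact binomial test. Both calls were Map3k7, which encodes the kinase TAK1 upstream of IKKβ. Its window had 111 tags in MPs and 46 at 36 h, a log2 change of -1.35 (adjusted p = 1.62e-05, exact binomial test), and a change of 1.04 followed from 36 h to OCs (adjusted p = 0.0137). The 2 calls share the 36 h library, in which the highest peak was 34.0, against 116.0 in MPs and 98.4 in OCs.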

How the data were processed

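The 7 ChIP-seq libraries, 1 per antibody and time, were analysed from the peak lists that the authors deposited. Per the labels and the submitters' processing notes, base calls came from CASAVA 1.8, and reads were aligned to mm9 with Bowtie2 and peaks called with HOMER, whose versions are not given in the sources used here. The deposited score of a peak is its tag number scaled by the authors to a common library size, and was divided by the worth of 1 tag to return whole tags (largest deviation 0.0533 of the score). Peaks were joined to GENCODE genes of the same build (NCBIM37). All 10 members matched by name. The members and lists were chosen with earlier results of these data known. Peaks of different times were matched where they overlapped by at least 1 bp. Tags of matched pairs, and their sums over each gene window, were compared with exact two-sided binomial tests with the median ratio over all pairs as the null, and p-values were adjusted by Benjamini-Hochberg over all pairs or all genes (Python 3.11.15, scipy 1.17.1). The test was first run on simulated data. Intervals on shares are exact binomial. For each member the highest site, the sites within 1 kb of its 5′ end, the highest MITF site and the largest change were to be named. Other sites were named after their values were seen. Some of the markers looked at are not reported here. Alternatives were other windows (20 and 100 kb), peaks nearest to the member's TSS, library sizes as the null, at least 2 times the lowest score, removal of IgG peaks and lists of equal length.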

Additional observations from a re-analysis of the deposited data

How the results depend on the processing

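With 1 library per condition no replicate could be left out, and counting error is the only error covered. No paired analysis was possible because each condition had 1 library. Counts of peaks followed the window: PU.1 peaks in MPs, at 36 h and in OCs were 84, 78 and 88 with 20 kb and 227, 221 and 235 with 100 kb, and 95 in OCs when the nearest TSS had to be the member's. MITF peaks with 20 kb were 11 in MPs and 7 in OCs, with 100 kb 13 at 36 h, with the nearest TSS 9, 3 and 6, and at no less than 2 times the lowest score 2 in MPs and 2 in OCs. The density of the alternative genes was 2.92, 3.89 and 3.61 per 100 kb with the nearest TSS, against 7.49, 6.96 and 7.49 for the canonical genes. At no less than 2 times the lowest score it was 6.22 at 36 h and 7.09 in OCs, against 6.76 and 6.87, so that the order of the arms turned at both times. Counting pairs past 2-fold without a p gave 8, 10 and 7 PU.1 pairs for the 3 comparisons. With library sizes as the null the Rel pair was not called and a Nfkb1 pair was, at a log2 change of -1.59 from MPs to 36 h (adjusted p = 0.0313, exact binomial test). With 20 kb windows 1 gene was called from MPs to 36 h, Traf3.

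Of 120 alternatives for the window changes, 105 kept direction and side of the threshold and 14 changed sign, in values near 0. From MPs to 36 h these were Rel at 0.02 and Nfkb1 at 0.01 with higher peaks only, and Relb at -0.12 and Map3k14 at -0.10 with library sizes. From 36 h to OCs they were Rela at 0.00, Rel at 0.09, Tnfaip3 at 0.06, Nfkb2 at 0.05 and Map3k14 at 0.08 with library sizes, and Tnfaip3 at 0.02 with higher peaks. From MPs to OCs they were Rel at 0.00 and Nfkb1 at 0.01 with higher peaks, and Map3k14 at -0.02 with library sizes and -0.01 with 20 kb. The shares of PU.1 peaks with MITF kept within their intervals under all 6 alternatives run.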
